A study of Trichoderma reesei with 8 samples.

Results

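The genes described here were expressed in glucose cultures of the cellulase-producing fungus *Trichoderma reesei* and fell to 0.25 or less of that level on wheat straw. Within 5 h of glucose being added to the straw, they were back to between 0.5-fold and 4-fold of their glucose level. They are 123 of the 9126 gene models counted, or 1.35%. They were chosen by their own readout. Counts were scaled to a total of 1000000 in each library (CPM), and 1 CPM was added to the mean of each condition before ratios were taken. A member had at least 20 CPM at 48 h glucose, a ratio of straw over 48 h glucose of at most 0.25, and a ratio of 5 h glucose over 48 h glucose from 0.5 to below 4. Models on scaffold 29 were left out, which removed 3 that otherwise met the limits. The fall on straw and the return at 5 h are therefore given as a description, and no test of them is reported.

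All cultures were of the wild-type strain QM6a, grown as shaken flasks of mycelium in minimal medium at 28°C. For 5 h glucose (2 libraries), glucose was added to 1% (w/v) to cultures that had spent 24 h on straw, and the straw was still present. For straw (3 libraries), mycelium from 48 h glucose was washed and kept for 24 h in medium with 1% (w/v) wheat straw as the only carbon source. For 48 h glucose (3 libraries), cultures grown from conidia had 1% (w/v) glucose as the only carbon source. The series describes triplicate samples throughout. The study's methods give 2 replicate cultures at 5 h glucose and 3 in each of the other conditions, which are the numbers of libraries here. Straw mycelium came from glucose-grown mycelium and the 5 h samples from cultures on straw, and the sources do not say which libraries of different conditions share a culture's history.

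*T. reesei* lives on dead plant material and takes up glucose in preference to other sugars. When glucose runs out, filamentous fungi reduce the synthesis of amino acids, ribosomes and membranes along with growth, and turn to secreted enzymes that release sugars from polysaccharides. When glucose returns, genes for growth are switched on again within hours, while enzymes for polysaccharides are repressed.

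Read numbers differed between conditions. The counted reads came to 798550 and 950244 at 5 h glucose, from 2473359 to 2997433 on straw and from 1337099 to 1704969 at 48 h glucose. The minimum of 20 CPM stood for 16.0 to 59.9 reads per library. Straw libraries 1 and 3 lay closer together than other replicates, with a chi-square per model of 1.32 where sampling noise alone gives about 1, against 10.6 and 11.3 for the pairs with straw library 2. They still differed beyond counting error (p = 1.21e-73, chi-square test over 7658 models), which is the only error this test covers, and it does not show that the samples were separate. They are numbered as replicates in the labels and were counted so. Without straw library 1 the rule took 131 genes, and without straw library 3 it took 126. Whether they come from separate cultures was not tested.

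Of the 4937 models with at least 20 CPM at 48 h glucose outside scaffold 29, 311 had fallen to 0.25 or less on straw. Of these, 123 (39.5%) were restored and form the group, 187 were not restored, and 1, estExt_GeneWisePlus.C_10096, overshot with a 5 h ratio of 4.60. The members had a median 5 h ratio of 0.800, and their median straw ratio was 0.196. The genes not restored had a median 5 h ratio of 0.243, and their median straw ratio was 0.135. These medians are set in part by the limits themselves, and no test was made of them.

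**Figure D1:**
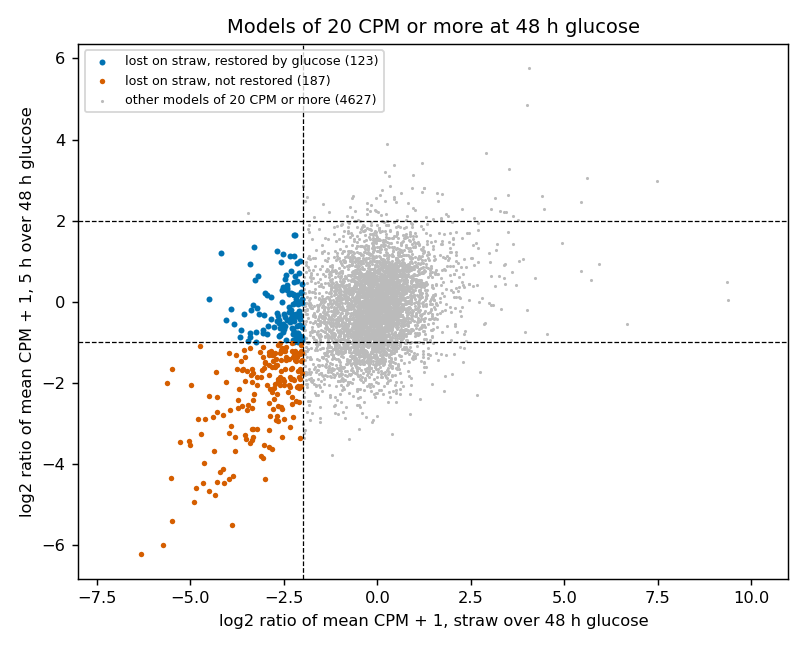
Each point is a gene model with at least 20 CPM at 48 h glucose outside scaffold 29, placed by the log2 ratio of straw over 48 h glucose (x axis) and of 5 h over 48 h glucose (y axis), and dashed lines are the limits of the rule. The 123 restored genes and the 187 genes not restored form a continuous cloud across the lower limit at 5 h, and 4627 other models lie mostly near 0 on both axes.

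Together the 123 genes took 6.43% and 6.53% of the counted reads in the 5 h glucose libraries. They took 1.09%, 0.980% and 1.08% in the straw libraries and 6.74%, 6.67% and 7.02% in the 48 h glucose libraries. The 5 h and 48 h glucose libraries gave the group similar shares, and every straw library lay far below both. The limits of the rule set this in large part, so nothing is read from it. In bulk RNA, less RNA per cell and fewer cells that express a gene cannot be told apart. The share of the group also depended on a few genes, as the 5 members with the highest CPM at 48 h glucose held 30.6% of the group's reads in the 5 h glucose libraries, 20.7% in the straw libraries and 29.9% in the 48 h glucose libraries.

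On straw the members were between 4.02-fold and 22.8-fold lower than at 48 h glucose, with a median of 5.11-fold. Many sat close to the limit, as 58 of the 123 had a straw ratio above 0.2 and 14 had a ratio of 0.1 or less. At 5 h glucose they were between 2.13-fold and 41.2-fold above straw, with a median of 4.67-fold. In the authors' RPKM, described further on, the median was 3.25-fold lower on straw than at 48 h glucose and 2.25-fold higher at 5 h glucose than on straw. The mean at 5 h was above that at 48 h glucose for 42 members (24 in RPKM), and the median ratio of 0.800 stands beside 0.875 for all models of at least 20 CPM. The 5 h level was from 0.5 to below 0.8 of the 48 h level for 61 members, from 0.8 to below 1.25 for 37 and 1.25 or more for 25, and 9 members had at least 2-fold more at 5 h than at 48 h glucose.

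Every straw library lay below every 48 h glucose library for all 123 members, where this held for 29.8% of the 7211 models that passed a filter on low counts, and every 5 h library lay above every straw library for all 123, against 29.9%. The rule fixed these separations in large part, so nothing is read from them. The 5 h libraries lay both above the range of the 48 h libraries for 22 members, both below it for 53, and overlapped with it for 48. Of all models 37.8% overlapped, which is close to the share among the members. The shares of all models above and below the range were not taken, so nothing is read from the counts of 22 and 53.

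**Figure D2:**
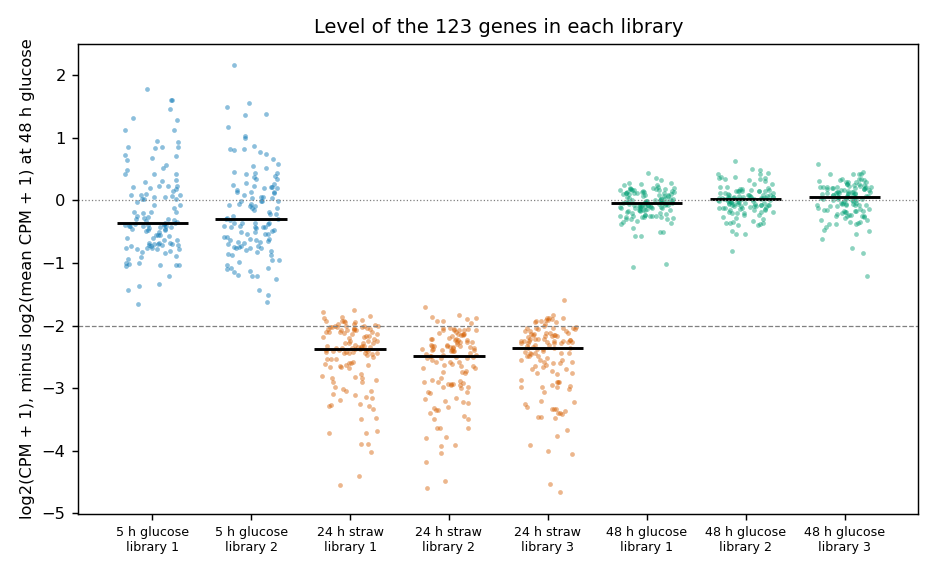
Each point is 1 of the 123 genes in 1 of the 8 libraries, as log2(CPM + 1) minus the log2 of its mean CPM plus 1 at 48 h glucose, with a bar at the median of each library and a dashed line at the limit of the rule on straw. The medians of the 5 h libraries lie just below 0 and those of the straw libraries below the dashed line.

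The annotation texts that accompany the study cover 2113 of the 9126 models, and 25 of the 123 members are among them. Of these, 8 are listed as unknown proteins and 17 carry a function. The functions fall into respiration and redox chemistry, biosynthesis, transport, and a remainder of 2 hydrolases. Redox and transport genes were not particular to the group. Of the 187 genes not restored, 42 have an annotation text. By the keyword lists described further on, 12 of them are oxidoreductases and 6 are transporters or permeases, against 5 and 4 members. The other 98 members are known only by model name. Positions below are gene spans on the scaffolds of assembly version 2.0 in the RefSeq annotation, which was matched to the models by transcript ID.

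**Figure D3:**
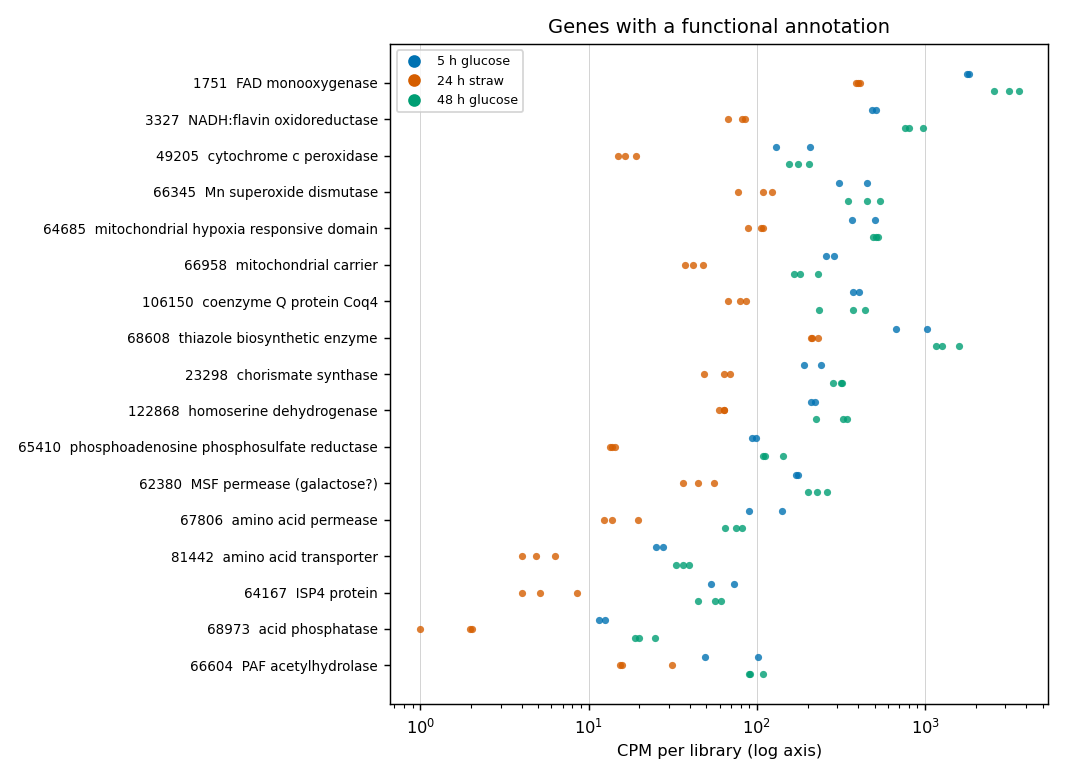
Each row is a member with a functional annotation, labelled by transcript ID, and each point is its CPM in 1 library on a log axis, with 5 h glucose above, straw in the middle and 48 h glucose below. In all 17 rows the straw points lie to the left of both other conditions, while the order of 5 h and 48 h glucose differs between rows.

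The redox group was led by an FAD monooxygenase (transcript ID 1751, scaffold 1, 625622 to 627906), one of the flavin enzymes that insert an oxygen atom into an organic substrate. It had 1773 and 1825 CPM at 5 h glucose, 386, 411 and 400 CPM on straw, and 2579, 3165 and 3588 CPM at 48 h glucose. The 5 h libraries lay between the other conditions and overlapped with neither, so that the gene had returned to 0.579 of its 48 h level. An NADH:flavin oxidoreductase (3327, scaffold 6, 608516 to 609831), of a family that reduces substrates with a flavin cofactor, had 510 and 483 CPM at 5 h glucose, 84.9, 66.9 and 82.1 CPM on straw, and 799, 756 and 969 CPM at 48 h glucose. It too was restored in part, to a ratio of 0.591, after a 10.7-fold lower level on straw.

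Cytochrome c peroxidase and a superoxide dismutase had 5 h ratios nearer 1. Cytochrome c peroxidase (49205, scaffold 12, 443193 to 444381) removes hydrogen peroxide in mitochondria with electrons from cytochrome c. It had 208 and 130 CPM at 5 h glucose, 19.0, 15.0 and 16.3 CPM on straw, and 155, 175 and 204 CPM at 48 h glucose. The 5 h libraries lay on either side of the 48 h range, with a mean ratio of 0.950, and the straw level was 10.1-fold lower than at 48 h glucose. Superoxide dismutases make hydrogen peroxide from superoxide, and the manganese form (66345, scaffold 18, 70292 to 71079), usual in mitochondria, was also a member. It had 452 and 306 CPM at 5 h glucose, 123, 77.1 and 109 CPM on straw, and 540, 452 and 350 CPM at 48 h glucose. The 5 h and 48 h libraries overlapped, and in CPM the straw libraries lay well below both. In the authors' RPKM, described further on, 5 h library 2 (35.36) was just below straw library 1 (35.43).

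Some other genes of respiration or mitochondria were lost on straw and missed the lower limit of 0.5 at 5 h. Singled out after their values were seen, they include the alternative oxidase aox1, NADH dehydrogenase (ubiquinone), the cytochrome oxidase assembly protein COX17, the sulfhydryl oxidase Erv1 and ATP synthase subunit c, with 5 h ratios of 0.104, 0.157, 0.164, 0.319 and 0.469. In that order, their mean CPM rose from 65.8, 28.5, 9.75, 17.0 and 43.4 on straw to 182, 51.3, 22.3, 76.7 and 555 at 5 h glucose. For these genes the limit separates degrees of return, and ATP synthase subunit c came close to it. Not all redox genes outside the group rose at 5 h glucose. The alpha subunit of branched chain alpha-keto acid dehydrogenase had 34.5 CPM on straw and 13.5 CPM at 5 h glucose. An aryl-alcohol dehydrogenase (54694) had 30.0 and 9.12 CPM, and another NADH:flavin oxidoreductase (69769) had 12.3 and 13.0 CPM.

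Further members were tied to the respiratory chain and the mitochondrial membrane. A protein with a mitochondrial hypoxia responsive domain (64685, scaffold 14, 120660 to 121497) had 368 and 505 CPM at 5 h glucose, 106, 88.6 and 108 CPM on straw, and 488, 524 and 507 CPM at 48 h glucose. One 5 h library was inside the 48 h range and the other below it. Coq4 (106150, scaffold 6, 1301404 to 1302885), needed in yeast for the synthesis of the electron carrier coenzyme Q, had 372 and 404 CPM at 5 h glucose, 79.2, 67.7 and 85.7 CPM on straw, and 235, 370 and 440 CPM at 48 h glucose. Its 5 h values lay inside the 48 h range, which was itself wide. A carrier of the mitochondrial inner membrane (66958, scaffold 20, 465132 to 466067), a family that moves metabolites in and out of the matrix, had 258 and 287 CPM at 5 h glucose, 48.1, 37.4 and 41.7 CPM on straw, and 167, 181 and 230 CPM at 48 h glucose. Here both 5 h libraries exceeded every 48 h library in CPM, with a ratio of 1.42. In the authors' RPKM, 5 h library 2 (22.6) was inside the 48 h range (21.7 to 24.8). The superoxide dismutase, the hypoxia domain protein, Coq4, and the ISP4 protein and the acetylhydrolase described further on are in none of the keyword lists and were singled out after their values were seen.

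Biosynthetic members covered a vitamin, aromatic and aspartate-derived amino acids, and sulphur. The thiazole biosynthetic enzyme (68608, scaffold 25, 285803 to 286839), which makes the thiazole ring of thiamine, had 1019 and 671 CPM at 5 h glucose, 230, 209 and 213 CPM on straw, and 1592, 1160 and 1254 CPM at 48 h glucose. Both 5 h libraries were below every 48 h library and above every straw library. Chorismate synthase (23298, scaffold 28, 57421 to 59045), the last step of the shikimate pathway on the way to aromatic amino acids, had 190 and 240 CPM at 5 h glucose, 48.5, 68.9 and 63.7 CPM on straw, and 282, 321 and 318 CPM at 48 h glucose. Homoserine dehydrogenase (122868, scaffold 16, 200925 to 202126), on the path from aspartate to threonine and methionine, had 222 and 210 CPM at 5 h glucose, 59.4, 63.8 and 63.7 CPM on straw, and 324, 226 and 345 CPM at 48 h glucose. In these enzymes too, each 5 h value was below every 48 h value, although the lowest 48 h library of homoserine dehydrogenase came close.

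Phosphoadenosine phosphosulfate reductase (65410, scaffold 16, 405068 to 405970) reduces activated sulphate to sulphite and so feeds the synthesis of cysteine and methionine. It had 93.9 and 98.9 CPM at 5 h glucose, 13.7, 13.4 and 14.3 CPM on straw, and 109, 111 and 142 CPM at 48 h glucose. Its straw level was 8.21-fold lower than at 48 h glucose, the steepest fall of these 4 enzymes, and its 5 h level of 0.800 of the 48 h level was their fullest return.

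The transport members divided by the side on which they returned. A permease annotated as MSF and, with a question mark, as a galactose permease (62380, scaffold 10, 1127990 to 1129819) had 177 and 172 CPM at 5 h glucose, 55.4, 36.2 and 44.7 CPM on straw, and 261, 201 and 228 CPM at 48 h glucose. It stayed below the 48 h range at 5 h. An amino acid permease (67806, scaffold 22, 52755 to 54293) had 142 and 89.5 CPM at 5 h glucose, 13.7, 19.7 and 12.3 CPM on straw, and 75.7, 65.0 and 81.5 CPM at 48 h glucose. In CPM both 5 h libraries were above every 48 h library, but they differed by more from each other than the 48 h libraries did. In the authors' RPKM, 5 h library 2 (4.29) was below every 48 h library (4.87 to 5.99). An amino acid transporter on another scaffold (81442, scaffold 25, 34142 to 35927) had 27.5 and 25.3 CPM at 5 h glucose, 4.85, 6.30 and 4.00 CPM on straw, and 39.3, 36.6 and 32.9 CPM at 48 h glucose. It stayed below the 48 h range. In mean CPM and in mean RPKM, the amino acid carriers thus did not share the direction of their difference between 5 h and 48 h glucose. ISP4 (64167, scaffold 13, 149257 to 151843), related to a protein of sexual differentiation in fission yeast and of a family that carries small peptides, had 72.6 and 53.7 CPM at 5 h glucose, 8.49, 5.12 and 4.00 CPM on straw, and 44.6, 56.2 and 61.3 CPM at 48 h glucose. The 5 h and 48 h ranges overlapped.

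The remaining annotated functions were hydrolases with low counts. An acid phosphatase with a metalloesterase domain (68973, scaffold 27, 202989 to 204500), of a class that releases phosphate from organic esters, had 12.5 and 11.6 CPM at 5 h glucose, 2.02, 1.97 and 1.00 CPM on straw, and 19.9, 19.0 and 24.7 CPM at 48 h glucose. The straw values rest on 5, 5 and 3 reads, and this was the member nearest to the minimum of 20 CPM. A platelet-activating factor acetylhydrolase (66604, scaffold 19, 378775 to 380301), named after an enzyme that cleaves that lipid mediator in animals, had 101 and 49.5 CPM at 5 h glucose, 15.4, 15.7 and 31.4 CPM on straw, and 90.3, 91.4 and 108 CPM at 48 h glucose. Its 5 h libraries were more than 2-fold apart, and only library 1 of the 5 h cultures was within the 48 h range. Of the 17 members with a function, 13 had a mean at 5 h below the mean at 48 h glucose and 4 above it, and in mean RPKM 2 were above it.

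Among the 8 unknown proteins, estExt_GeneWisePlus.C_120166 (78956, scaffold 12, 310602 to 311213) returned furthest. It had 497 and 408 CPM at 5 h glucose, 35.6, 26.8 and 29 CPM on straw, and 160, 137 and 135 CPM at 48 h glucose, a 5 h ratio of 3.13 with no overlap between any conditions. Another, e_gw1.11.546.1 (62871, scaffold 11), had 193 and 241 CPM at 5 h glucose, 19.0, 26.8 and 28.0 CPM on straw, and 82.7, 122 and 116 CPM at 48 h glucose, a ratio of 2.02. The other 6 had 5 h ratios between 0.503 (e_gw1.11.289.1) and 0.825 (estExt_GeneWisePlus.C_110090). One of these, fgenesh5_pg.C_scaffold_10000271, is annotated with a distant similarity to a stop codon bypass factor of yeast and had a straw ratio of 0.176.

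Most of the group's reads came from genes without an annotation. By RPKM, which divides by transcript length and so allows genes to be compared, the highest member at 48 h glucose was kg2.C_scaffold_15000038, with a mean of 439 RPKM at 5 h glucose, 271 RPKM on straw and 725 RPKM at 48 h glucose. The next was fgenesh5_pg.C_scaffold_23000017, a model of 267 bp, with 1096 RPKM at 5 h glucose, 54.4 RPKM on straw and 590 RPKM at 48 h glucose. The 4 members below it, singled out after their values were seen, were estExt_fgenesh5_pg.C_210021, estExt_Genewise1.C_210127, estExt_GeneWisePlus.C_180255 and estExt_fgenesh5_pg.C_70483, at 488, 463, 289 and 226 RPKM at 48 h glucose. Across all members the mean RPKM ran from 0.704 to 1096 at 5 h glucose, from 0.210 to 271 on straw and from 1.37 to 725 at 48 h glucose. The authors' RPKM rest on a different library total from the CPM, and their ratios between conditions are given further on.

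The deepest fall belonged to estExt_fgenesh5_pg.C_210021 (scaffold 21, 1089 bp), which had 3516 and 6426 CPM at 5 h glucose, 222, 194 and 202 CPM on straw, and 4357, 5056 and 4746 CPM at 48 h glucose. It was 22.8-fold lower on straw than at 48 h glucose, and its 5 h libraries fell on either side of the 48 h range. The next was fgenesh5_pg.C_scaffold_23000017, with 3868 and 2589 CPM at 5 h glucose, 86.1, 61.8 and 84.1 CPM on straw, and 1261, 1289 and 1686 CPM at 48 h glucose. It had the widest swing of the group, 18-fold lower on straw and 41.2-fold higher at 5 h glucose than on straw, and passed its 48 h level by a ratio of 2.29. The other 6 of the 8 lowest straw ratios lay between 0.0600 and 0.0848. They were kg2.C_scaffold_15000004, estExt_Genewise1.C_20662, estExt_Genewise1.C_210127, e_gw1.7.316.1, estExt_GeneWisePlus.C_190288 and estExt_GeneWisePlus.C_170101. The lowest of these, kg2.C_scaffold_15000004, rests on 2, 8 and 2 reads in the straw libraries, and e_gw1.7.316.1 on 3, 3 and 7 reads, so that their ratios carry a large counting error.

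The members with the most CPM at 48 h glucose showed each course of return. After estExt_fgenesh5_pg.C_210021, estExt_fgenesh5_pg.C_70483 had 1801 and 2921 CPM at 5 h glucose, 459, 336 and 462 CPM on straw, and 5408, 4410 and 4125 CPM at 48 h glucose. With a 5 h ratio of 0.508 it was barely inside the limit. By contrast, estExt_fgenesh5_pg.C_80051 had 5147 and 6064 CPM at 5 h glucose, 395, 387 and 417 CPM on straw, and 3399, 4104 and 4039 CPM at 48 h glucose. In CPM both of its 5 h libraries exceeded every 48 h library. In the authors' RPKM, its 5 h library 2 (212) was inside the 48 h range (194 to 225). Its neighbour in rank, estExt_GeneWisePlus.C_80242, had 5634 and 4520 CPM at 5 h glucose, 766, 721 and 783 CPM on straw, and 4516, 3167 and 4362 CPM at 48 h glucose. The other 5 unannotated members of the 10 highest were kg2.C_scaffold_15000038, estExt_GeneWisePlus.C_220198, estExt_Genewise1.C_210127, estExt_fgenesh5_pg.C_10410 and fgenesh1_pm.C_scaffold_10000095, with 5 h ratios of 0.791, 0.788, 0.687, 1.34 and 0.629.

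Overshoot at 5 h was greatest for fgenesh5_pg.C_scaffold_13000198, which had 45.1 and 113 CPM at 5 h glucose, 5.26, 3.15 and 5.00 CPM on straw, and 17.0, 33.2 and 23.2 CPM at 48 h glucose. Its mean ratio of 3.14 came from 5 h libraries that differed more than 2-fold. The ratios of estExt_GeneWisePlus.C_280019 and estExt_Genewise1.C_10226 were 2.55 and 2.38. For estExt_GeneWisePlus.C_280019 the libraries were close together, with 197 and 207 CPM at 5 h glucose, 9.70, 4.33 and 7.34 CPM on straw, and 66.9, 77.9 and 91.2 CPM at 48 h glucose. The 5 least restored were estExt_fgenesh5_pg.C_150189, e_gw1.11.289.1, e_gw1.7.570.1, estExt_fgenesh5_pg.C_70483 and estExt_fgenesh5_pg.C_70496, with ratios of 0.502, 0.503, 0.505, 0.508 and 0.514.

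The limits cut through a continuous range of values. Just inside the straw limit were fgenesh5_pg.C_scaffold_4000448, estExt_Genewise1.C_170262 and fgenesh5_pg.C_scaffold_1000226, with ratios of 0.249, 0.248 and 0.248. Just outside it were estExt_GeneWisePlus.C_160254, estExt_GeneWisePlus.C_390050 and estExt_GeneWisePlus.C_10792, with ratios of 0.251, 0.252 and 0.252. At 5 h, estExt_GeneWisePlus.C_540010, fgenesh5_pg.C_scaffold_6000293 and estExt_fgenesh5_pg.C_20133 missed the lower limit with ratios of 0.492, 0.492 and 0.479. At 48 h glucose the lowest members were the acid phosphatase, fgenesh5_pg.C_scaffold_19000058 and fgenesh1_pm.C_scaffold_7000146 with 21.2, 21.3 and 21.5 CPM, and estExt_Genewise1.C_120081, e_gw1.9.694.1 and kg2.C_scaffold_6000065 fell short with 19.0, 18.4 and 16.5 CPM. The upper limit at 5 h was approached by no member, since the highest ratio was 3.14 and the model beyond it was at 4.60.

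Membership was less firm in single libraries than in means. With 5 h library 1 alone, 112 of the 123 genes were within the limits on return, and 11 were below 0.5. With 5 h library 2 alone, 109 were within the limits and 13 below 0.5. The gene missing from that count was above the upper limit. Both libraries agreed on 98 genes, and 9 genes were more than 2-fold apart, 4 of them higher in library 2 and 5 higher in library 1. In the straw libraries 109, 115 and 110 members were at 0.25 or less of the 48 h mean, and 95 were so in every one. The median coefficient of variation between libraries was 16.9% among 5 h glucose libraries, 13.1% among straw libraries and 15.6% among 48 h glucose libraries. The unknown protein fgenesh5_pg.C_scaffold_1000525 shows how thin the margins were for scarce genes, with 7.51 and 14.7 CPM at 5 h glucose, 5.66, 1.57 and 5.00 CPM on straw, and 22.3, 34.5 and 8.97 CPM at 48 h glucose. Its 5 h libraries rest on 6 and 14 reads, and its lowest 48 h library lay below a 5 h library.

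**Figure D4:**
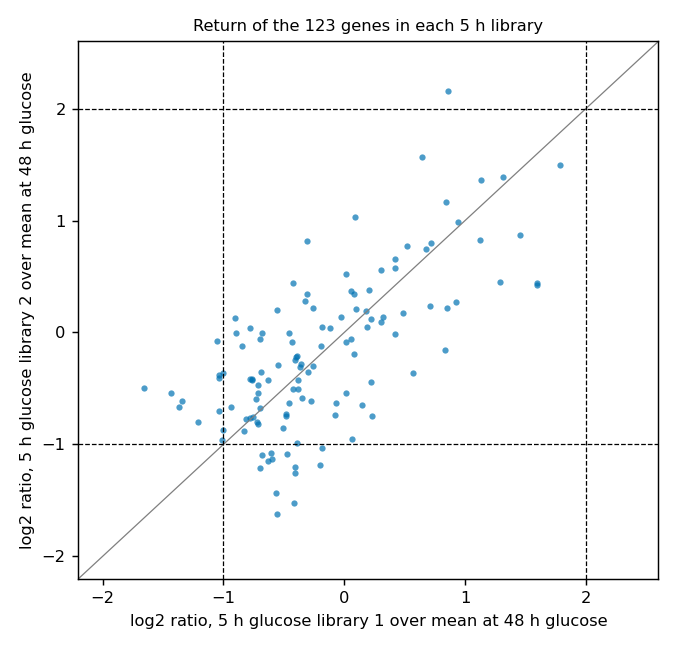
Each point is 1 of the 123 genes, placed by its log2 ratio to the 48 h glucose mean in 5 h library 1 (x axis) and 5 h library 2 (y axis), with dashed lines at the limits of the rule and a solid line where the libraries agree. Of the 123 points, 98 lie within the limits in both libraries, and each point below the lower limit is below it in 1 library only.

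The members followed their median profile closely, as a choice by that profile requires. The correlation of log2(CPM + 1) of a member with the median member over the 8 libraries had a median Pearson's r of 0.969 and was lowest at 0.793. Outside the group the models most like this profile were estExt_GeneWisePlus.C_290155 (r = 0.996), which lies on scaffold 29, estExt_Genewise1.C_11713 (r = 0.995) and estExt_GeneWisePlus.C_100156 (r = 0.995). The last pair missed the straw limit with ratios of 0.283 and 0.254. The 8 libraries form 3 conditions, so these correlations describe likeness only.

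The members were spread over 31 of the 72 scaffolds, with 11 of the 1025 models on scaffold 1 and 8 each of the 476 on scaffold 5, the 433 on scaffold 7 and the 294 on scaffold 11. The consecutively numbered models fgenesh5_pg.C_scaffold_5000239 and fgenesh5_pg.C_scaffold_5000240, singled out after their values were seen, were both members. The lower-numbered model had 65.1 and 124 CPM at 5 h glucose, 5.66, 9.05 and 4.34 CPM on straw, and 38.7, 56.2 and 29.2 CPM at 48 h glucose. The higher-numbered model had 32.6 and 52.6 CPM at 5 h glucose, 5.26, 3.94 and 5.67 CPM on straw, and 61.0, 68.4 and 29.2 CPM at 48 h glucose. The lower-numbered model had passed its 48 h level at 5 h, with a ratio of 2.26, and the higher-numbered one had a ratio of 0.809. Members had a median transcript length of 1178 bp, against 1284 bp for genes not restored and 1542 bp for all models of at least 20 CPM. These lengths were not tested.

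The scaling of the libraries set how many genes met the rule. The library totals behind the authors' RPKM exceed the counted reads, which made up 10.2% and 7.38% of that total at 5 h glucose, 18.2% to 20.2% on straw and 10.1% to 12.2% at 48 h glucose. Scaled by those totals, an alternative added after the data were seen, the median log2 fold change of all models moved by 0.80 on straw relative to 48 h glucose, and by -1.27 at 5 h glucose relative to straw. The rule then took 23 models, 22 of them members, and with the authors' RPKM in place of CPM it took 18, 17 of them members. Among the members with a function, the 3 that stayed under the totals were cytochrome c peroxidase, phosphoadenosine phosphosulfate reductase and ISP4. The direction was kept in nearly every gene. The limits of the rule left little room for a reversal, so nothing is read from this. In mean RPKM all 123 members were lower on straw than at 48 h glucose, with a median ratio of 0.308, and 122 were higher at 5 h glucose than on straw, with a median ratio of 2.25. In single libraries of RPKM, straw lay wholly below 48 h glucose for 122 members and 5 h glucose wholly above straw for 102. The share over all models was not taken in RPKM and the rule favoured these separations, so they are a description only.

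**Figure D5:**
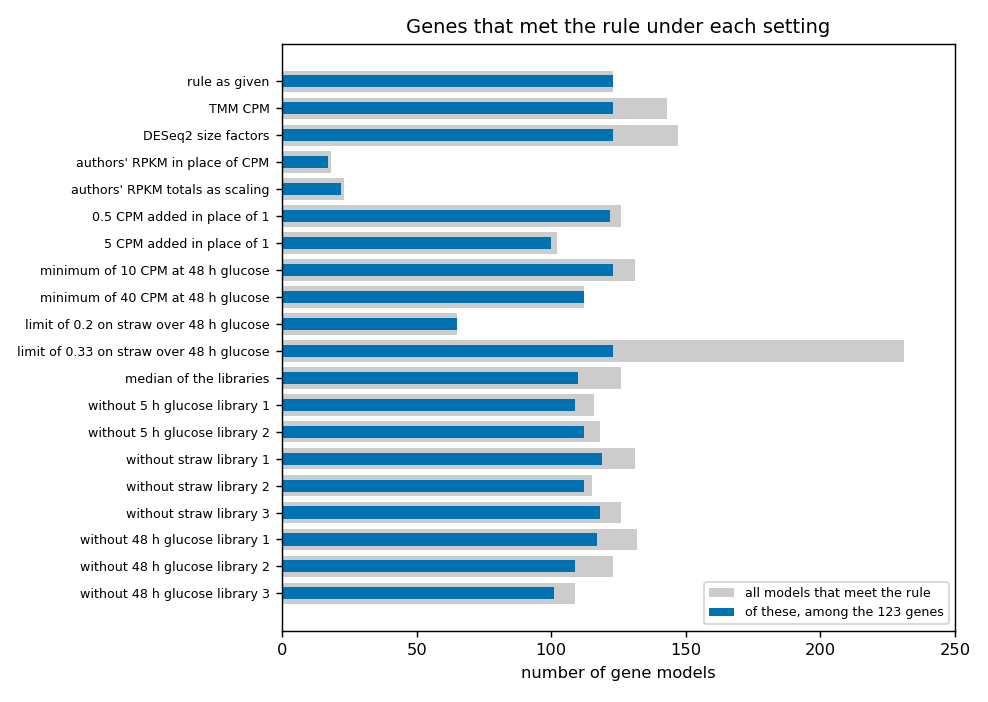
Bars give the number of models that met the rule under each setting (grey) and how many of these were among the 123 genes (blue). Settings based on the authors' RPKM or their totals keep 18 and 23 models, TMM and DESeq2 size factors give 143 and 147 including all 123, and leaving out any library gives between 109 and 132.

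The other annotated genes of the same pathways were set beside the members through keyword lists, from which the members and scaffold 29 were taken out, and calls are edgeR's with Benjamini-Hochberg adjustment below 0.05 over all 7211 models. For reading these counts, 30.6% of all models were higher and 28.2% lower on straw than at 48 h glucose, and 28.5% were higher and 30.0% lower at 5 h glucose than on straw. Of 14 tested genes for amino acid, nucleotide and cofactor synthesis, 4 were higher and 7 lower on straw than at 48 h glucose, and 9 were higher and 3 lower at 5 h glucose than on straw, with a median log2 fold change of -0.43 on straw where that of all models was 0.05. Of 102 oxidoreductases, 43 were higher and 36 lower on straw, and 28 were higher and 39 lower at 5 h. Of 89 transporters and permeases, 46 were higher and 28 lower on straw, and 20 were higher and 42 lower at 5 h. Under the RPKM totals the calls higher and lower on straw became 5 and 1, 55 and 22, and 55 and 14 in these 3 lists, and those at 5 h became 1 and 5, 7 and 64, and 3 and 66.

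Lists for protein synthesis held no member. Only annotated models can enter a list, and 25 of the 2113 annotated models were members, while 98 members had no annotation text. Nothing is therefore read from the absence of members in these short lists. Of 9 mitochondrial ribosomal proteins, none was higher and 8 were lower on straw than at 48 h glucose, and 6 were higher and none lower at 5 h glucose than on straw. Of 8 cytosolic ribosomal proteins, 5 were lower on straw and 6 higher at 5 h, with none in the other direction. Ribosome biogenesis (16 tested) had 5 lower on straw and none higher, then 5 higher and 1 lower at 5 h. For tRNA and translation factors (28 tested) 3 were higher and 11 lower on straw, and 10 higher and 4 lower at 5 h. Under the RPKM totals this balance did not hold. The calls higher and lower on straw were then 0 and 2 for mitochondrial ribosomal proteins, 1 and 0 for cytosolic ones, 9 and 0 for ribosome biogenesis, and 13 and 5 for tRNA and translation factors. The calls higher and lower at 5 h were 1 and 3, 3 and 2, 1 and 10, and 2 and 19. With its own size factors, DESeq2 also gave 0 wherever none is written here, and so did edgeR at an unadjusted p below 0.05, except for 1 cytosolic ribosomal protein lower at 5 h. The median log2 fold changes on straw were -1.17, -0.59, -0.09 and -0.27 in these 4 lists, against -2.48 over the members, whose value the rule set.

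In several other lists, more genes were called higher than lower on straw. Of 59 transcription regulators, 35 were higher and 6 lower on straw than at 48 h glucose, and 4 were higher and 31 lower at 5 h glucose than on straw. Carbohydrate-active and cell wall genes (48 tested) had 22 higher and 10 lower on straw, and 11 higher and 24 lower at 5 h. Peptidases (26 tested) had 12 higher and 4 lower on straw, and 6 higher and 11 lower at 5 h. In glycolysis and fermentation (11 tested) 5 were higher and 4 lower on straw, and none was higher and 5 lower at 5 h. Secondary metabolism (4 tested) had 2 higher and 1 lower on straw, and none higher and 3 lower at 5 h. Lipid and sterol genes (23 tested) had 8 higher and 9 lower on straw, and 5 higher and 9 lower at 5 h. Kinases and signalling, which holds the acid phosphatase, had 17 higher and 21 lower on straw among 65 other genes, and 23 higher and 17 lower at 5 h. For glycolysis and secondary metabolism the counts of 0 higher at 5 h were also 0 by DESeq2 and at an unadjusted p below 0.05 in edgeR. Of 596 other unknown proteins tested, 185 were higher and 123 lower on straw, and 134 were higher and 163 lower at 5 h. Under the RPKM totals each of these 8 lists had more calls higher than lower on straw and more lower than higher at 5 h, with 33 higher and 4 lower on straw for kinases and signalling and 12 higher and 3 lower for lipid and sterol genes.

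Genes of conidiation and sporulation stood for spore-forming cells, which mycelial cultures can hold. The 5 models of this list summed to 198 and 154 CPM at 5 h glucose, to between 482 and 496 CPM on straw and to between 273 and 298 CPM at 48 h glucose, and none of them was at 0 reads in every library. Of the 4 tested, 2 were higher and 1 lower on straw than at 48 h glucose, and none was higher, also at an unadjusted p below 0.05 in edgeR and by DESeq2, and 3 lower at 5 h glucose than on straw. The part of such cells in the fall and return of the 123 genes was not tested.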

How the data were processed

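RNA was sequenced as 50 bp SOLiD reads from 8 libraries. The authors aligned the reads to the JGI assembly version 2.0 and deposited raw sense-strand counts of uniquely aligned reads, made with HTSeq (version not given in the sources used here). They also deposited RPKM, in which transcript length and a total of reads per library are the divisors. Recovered from the values, this total lay between 7838128 and 16471040 reads. CPM were calculated from the counts, and the rule was applied to their means. All models were fitted with edgeR 4.0.16 (R 4.3.3, TMM, filterByExpr, condition as the only term), and DESeq2 1.42.0 was an alternative. P values over these cultures measure the spread between the libraries deposited. The edgeR fit was tried on simulated counts, which did not cover the rule or the choice of scaling. Tables were made with Python 3.11.15, pandas 2.3.3 and numpy 2.4.6.

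The members and the 16 keyword lists were chosen with earlier results of these data known. Named members are the 10 with the highest CPM at 48 h glucose, the 8 lowest on straw, the 5 highest and 5 lowest at 5 h, those in a keyword list, the models nearest each limit and the 3 most like the median profile. Annotation texts came from the tables published with the study, and 2091 of the 2113 annotated models matched a RefSeq locus. No sequences were used here.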

Additional observations from a re-analysis of the deposited data

How the results depend on the processing

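The number of genes that met the rule was 123. It was 18 with the authors' RPKM in place of CPM, 23 with the RPKM totals as scaling, 65 with a straw limit of 0.2 and 231 with a limit of 0.33, and between 109 and 132 with each library left out in turn. TMM, DESeq2 size factors, other added CPM, other minimum CPM and medians in place of means gave between 102 and 147. The median log2 ratio of the members was -2.35 for straw over 48 h glucose and 2.22 for 5 h glucose over straw, and with the RPKM totals it was -1.62 and 1.13. The shift follows from the larger share of counted reads in the straw libraries. With each library left out in turn these medians ranged from -2.41 to -2.34 and from 2.22 to 2.30. The ratio of 5 h over 48 h glucose had a median of -0.32, between -0.37 and -0.27 with a library left out.

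Over all models, 4237 differed between straw and 48 h glucose (2203 higher, 2034 lower), 4222 between 5 h glucose and straw (2056 higher, 2166 lower) and 3521 between 5 h and 48 h glucose (1850 higher, 1671 lower). With the RPKM totals these became 5047 (4294 higher, 753 lower), 5293 (443 higher, 4850 lower) and 3262 (847 higher, 2415 lower). Leaving out each library gave 3708 to 4596, 3650 to 4262 and 2795 to 3468. Whether the replicate numbers pair libraries of different conditions could not be told. Same-numbered libraries had correlations of their deviations between 0.00342 and 0.312, and differently numbered ones between -0.312 and 0.275. With 2 libraries at 5 h glucose, the deviations of one mirror those of the other, so these values are not independent. With the replicate number as a block, the counts of models that differed were 4199, 4097 and 3388. Of the ratios and list counts of single results, 788 stayed within their limits and 70 moved, all under the RPKM totals. None of the 46 members named by rule or by function changed sign for straw over 48 h glucose. For 5 h over 48 h glucose, 10 changed sign when a library was left out, among them estExt_fgenesh5_pg.C_210021, cytochrome c peroxidase, the superoxide dismutase, Coq4, ISP4 and the acetylhydrolase, and 3 did with the RPKM totals, each by less than the spread between libraries. Over all 123 members, 24 changed sign with a library left out and 18 in the authors' RPKM. The planned share of promoters with each motif was not run because no promoter sequences were used here. At 5 h glucose the depth limits the scarce members most, where the smallest count of a member was 6 reads.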
